A study of Homo sapiens with 6 samples.

Results

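YAP1 and WWTR1 encode YAP and TAZ, transcriptional coactivators that bind DNA through the TEAD factors. The Hippo kinases of the LATS family phosphorylate YAP and TAZ and keep them in the cytoplasm, and when they enter the nucleus with TEAD they drive genes such as CCN1 and CCN2. YAP and TAZ respond to cell shape, matrix stiffness and signals from G protein-coupled receptors, and in the renal tubule they are known for regeneration after injury and for matrix production. The phosphorylation and the location of the proteins are not seen in RNA. The set examined here was 10 genes of the 16250 listed. Of these, 6 were treated as targets (CCN1, CCN2, ANKRD1, AMOTL2, AJUBA and LATS2) and 4 as factors (YAP1, WWTR1, TEAD1 and TEAD4). They were taken by gene symbol, from a list drawn up with earlier results of these data known.

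To see the effect of substance P (SP) on tubule cells, RNA was sequenced from HK-2 cells, an immortalized line of human proximal tubule epithelium. All cells overexpressed NK-1R, the SP receptor, from a lentiviral vector with a CMV promoter, and were selected with puromycin. SP-treated cells received 20 µM SP and control cells received PBS, each for 48 h, with 3 libraries in each group. There was no group without the receptor vector, so the effect of SP in unmodified cells was not analysed here. Values are FPKM, which divides fragments by transcript length and by the mapped total of each library, and the depth behind them is unknown.

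Epithelial markers were present in every library, with summed FPKM of 1020 to 1080 in control and 1060 to 1100 in SP-treated cells for 6 renal epithelial genes such as KRT8 and PAX8, although CDH1 was at most 0.07. Of 8 proximal tubule markers, 5 were under 0.5 FPKM in all libraries and LRP2 had no value here, while GGT1 was at 45.4 to 64.6. AQP1, named after its values were seen, was at 0.27, 0.32 and 0.41 in control and 0.63, 0.63 and 0.87 in SP-treated libraries (log2 fold change 0.36, limma adjusted p = 0.0412), with an adjusted p of 0.0621 to 0.116 without any 1 library other than the third control library (0.0259 to 0.116 over the alternatives). All its control values were under 0.5 FPKM, so AQP1 passed the filter on low values only through the SP libraries. Its p-value is therefore no support for a rise. Endothelial markers summed to 0.05 to 0.07 FPKM in control and to 0.33 to 0.67 in SP-treated cells, most of it PECAM1 in the latter, with CDH5 at most 0.1. The immune list summed to 113 to 117 in control and 108 to 115 in SP-treated cells, nearly all of it the lysosomal gene CD68, with CD14 at 1.45 to 4.09 and the leukocyte gene PTPRC at most 0.01. The fibroblast list summed to 23.5 to 29.9 in control and 15.7 to 18.1 in SP-treated cells, nearly all of it LUM and COL1A1, with PDGFRA and PDGFRB at most 0.08. The part of other cell types in the results was not tested. TACR1, the gene of NK-1R, was at 15.7, 25.8 and 33.0 FPKM in control and 78.5, 123 and 141 in SP-treated libraries (log2 fold change 2.17, SE 0.28, limma adjusted p = 0.00207). Receptor transcript and peptide thus differed together, and their effects cannot be told apart. The TACR1 values do not separate transcript of the vector from that of the cells' own gene. On the first principal component, with 64.8% of the variance, the first SP library (12.7) lay nearer to the control libraries (-22.3 to -15.8) than the other SP libraries (20.7 and 21.3).

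TEAD factors recognize the letters GGAATG, which read CATTCC on the other strand. The promoter of CCN2 is shown because it carries the most copies among the 7 members with a promoter in the table used here. It covers the 250 bases before the start of the gene (chr6:131951373-131951622, minus strand, GRCh38.p14, RefSeq), 5′ to 3′, with GGAATG in capitals.
CCN2: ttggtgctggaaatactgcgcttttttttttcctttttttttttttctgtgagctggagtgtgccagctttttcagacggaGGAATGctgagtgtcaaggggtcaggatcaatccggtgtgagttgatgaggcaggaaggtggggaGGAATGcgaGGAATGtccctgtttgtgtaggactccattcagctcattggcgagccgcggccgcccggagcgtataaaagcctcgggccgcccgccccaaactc
The 3 copies begin 169, 104 and 95 bases before the start. Of 35116 RefSeq promoter windows of this length, 11.9% hold the letters on either strand at least once, 0.928% at least 2 times and 0.0797% at least 3 times.

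CCN1, TEAD1 and TEAD4 are not in this table, and AMOTL2, AJUBA and WWTR1 had more than 1 start. ANKRD1 held 2 copies, 220 and 128 bases before its start, and AMOTL2, AJUBA and YAP1 held 1 each, those of AMOTL2 and AJUBA before the inner start. Short stretches of 30 bases around them are shown to set targets that rose beside members that did not pass the test, again with GGAATG or CATTCC in capitals.
ANKRD1 (chr10:90921290-90921319, minus strand): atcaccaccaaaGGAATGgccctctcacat
ANKRD1 (chr10:90921198-90921227, minus strand): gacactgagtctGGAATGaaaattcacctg
AMOTL2 (chr3:134374499-134374528, minus strand): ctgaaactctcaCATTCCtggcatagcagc
AJUBA (chr14:22976884-22976913, minus strand): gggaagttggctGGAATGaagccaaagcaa
YAP1 (chr11:102110273-102110302, plus strand): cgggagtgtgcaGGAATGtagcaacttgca
In GENCODE 29 the stretch of ANKRD1 nearer to the start lies inside the first exon of a longer transcript. The windows that hold the copies of AMOTL2 and AJUBA overlap 3 and 2 annotated exon entries of these genes. Whether their stretches lie inside these exons was not examined. LATS2 and WWTR1 had no copy in these windows. The letters TGANTCA, with any base for N, are a loose form of the AP-1 site and were searched on both strands. They occurred in the window of ANKRD1, 195 bases before the start, and in no other member window, against 6.57% of all windows. The copy in ANKRD1 reads TGATTCA, without the C or G in the middle of the usual AP-1 site. A match is a description of letters and not of binding.

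Most of the targets were higher in SP-treated cells, while among the factors TEAD1 rose. Of the 6 targets, 5 rose (CCN1, CCN2, ANKRD1, AMOTL2 and LATS2), none fell and AJUBA did not pass the threshold, a limma adjusted p under 0.05. Of the 4 factors, TEAD1 rose and YAP1, WWTR1 and TEAD4 did not pass. With the replicate number as a block TEAD4 also passed, as lower (limma adjusted p = 0.0268). The background was 8.57% of 12127 genes tested higher and 12.0% lower at the same threshold. For the same 5 targets and TEAD1 every SP library was above every control library, as for 15.9% of genes tested. The median log2 fold change was 0.83 over the targets and -0.08 over the factors, against -0.05 over all genes tested. All 10 members passed the filter on low values. RNA from a culture does not separate more transcript per cell from more cells that carry it. The study reports that SP slowed growth and caused apoptosis and cell cycle arrest in such cells. Cell density at harvest is not given, and its part in the results was not tested.

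The background moved with scaling and with single libraries. It was 1039 higher and 1457 lower genes (41.6% of calls higher), but 1044 and 750 (58.2%) with equal FPKM totals and 1274 and 923 (58.0%) with median-ratio scaling. It was 582 and 603 without the second control library, 506 and 432 without the second SP library, and 690 and 822 without the third SP library. The 5 targets and TEAD1 passed in all 13 alternatives tried.

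**Figure D1:**
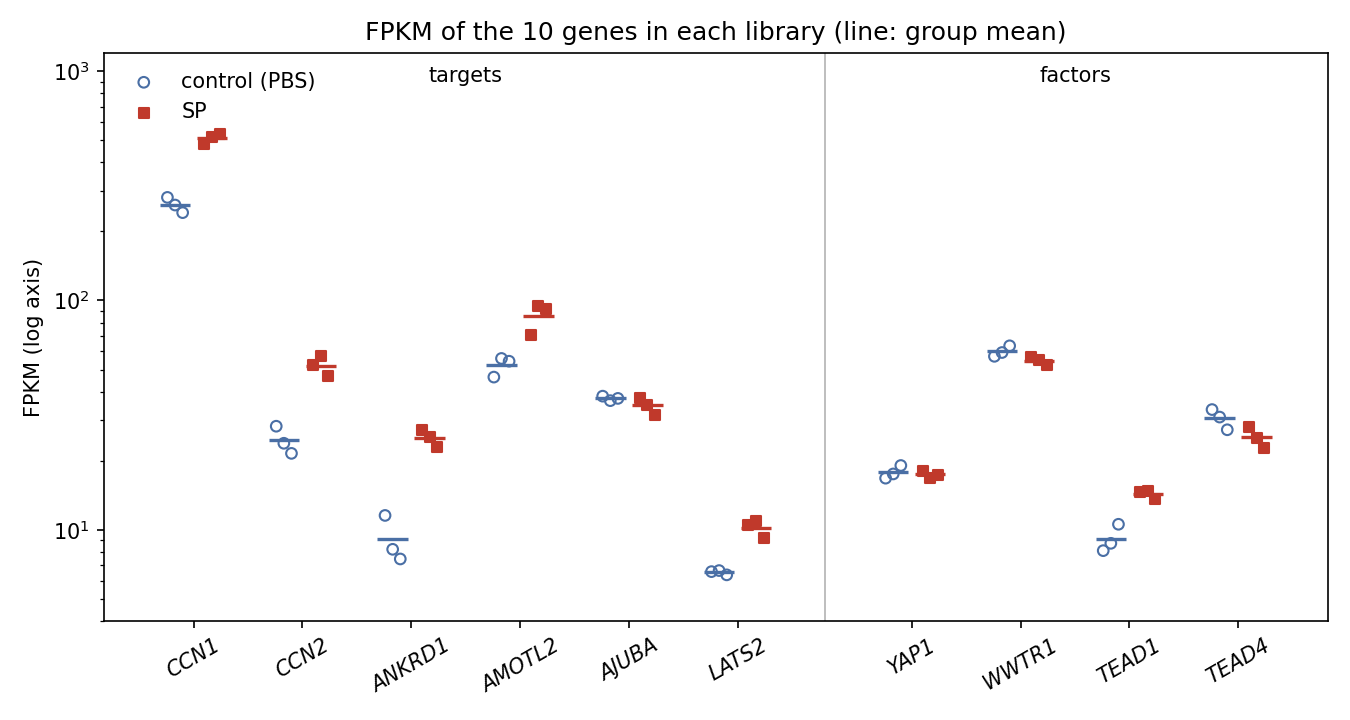
FPKM on a log axis of the 6 targets (left) and 4 factors (right) by library, with open blue circles for 3 control and filled red squares for 3 SP libraries and a line at each group mean. For CCN1, CCN2, ANKRD1, AMOTL2, LATS2 and TEAD1 every SP library lies above every control library, and for YAP1 the groups overlap.

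CCN1 and CCN2 encode secreted matricellular proteins of the CCN family, formerly CYR61 and CTGF, which bind integrins and growth factors, and CCN2 is known as a profibrotic factor. The CCN1 gene spans bases 85580761 to 85583962 of chromosome 1 (GRCh38, GENCODE 29). It was at 282, 261 and 242 FPKM in the control libraries and at 481, 516 and 535 in the SP libraries. It was the most abundant of the members, above 97.9% of genes tested, and the groups were far apart. The mean rose from 261 ± 20.0 to 510 ± 27.3 FPKM (SD, n = 3 each), a log2 fold change of 0.96 (SE 0.08, limma adjusted p = 0.000326).

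CCN2 lies on chromosome 6 from 131948176 to 131951373 on the minus strand. Its FPKM was 28.3, 23.8 and 21.5 in control and 52.1, 57.2 and 46.8 in SP-treated libraries, without overlap. The log2 fold change was 1.06 (SE 0.11, limma adjusted p = 0.000929), so that CCN2 changed by about the same factor as CCN1 (2.12 and 1.95 as ratios of mean FPKM) from a level an order of magnitude lower. The difference between these changes was not tested. An antisense transcript overlaps CCN2, others overlap LATS2, YAP1, WWTR1 and TEAD1, and how strand was treated in counting is not given in the methods used here.

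ANKRD1 encodes a nuclear and sarcomeric ankyrin repeat protein that is widely used as a readout of YAP. It lies on chromosome 10 from 90912096 to 90921276. Its FPKM was 11.6, 8.22 and 7.46 in control and 27.2, 25.5 and 22.9 in SP-treated libraries. The lowest SP library stood well above the highest control library. ANKRD1 had the largest change of the members, a log2 fold change of 1.40 (SE 0.14, 95% interval 1.07 to 1.72, limma adjusted p = 0.000859), higher than that of 99.4% of genes tested. ANKRD1 and CCN2 passed the test with at least 2-fold on the log2(FPKM + 1) scale, as did 1.29% of genes tested upward. CCN1 and CCN2 lay close to that limit. The log2 fold change of CCN2 was 0.971 without the third control and 0.988 without SP replicate 2. For CCN1 it was 1.028 with equal totals, 1.016 with median-ratio scaling, 1.02 without the first control and 1.007 without the first SP library.

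AMOTL2 and LATS2 are targets that act back on the pathway. AMOTL2 encodes an angiomotin-like protein that holds YAP and TAZ at junctions, and it lies on chromosome 3 from 134355874 to 134375479. It was at 46.3, 55.9 and 54.3 FPKM in control and at 71.0, 95.03 and 91.8 in SP-treated libraries. The first SP library was the lowest of its group and still above all control libraries. The log2 fold change was 0.70 (SE 0.12, limma adjusted p = 0.00659). LATS2 encodes the kinase that phosphorylates YAP and TAZ, and it is the least abundant target, on chromosome 13 from 20973032 to 21061547. Its FPKM was 6.57, 6.64 and 6.36 in control and 10.5, 10.9 and 9.22 in SP-treated libraries, with little spread in control. It rose by a log2 fold change of 0.57 (SE 0.08, limma adjusted p = 0.00359). LATS1, its paralog, had a log2 fold change of 0.18 and did not pass (limma adjusted p = 0.396). AMOTL1, the paralog of AMOTL2, was at 2.34 to 3.12 FPKM over the 6 libraries with a log2 fold change of 0.06 (limma adjusted p = 0.714). These paralogs, and TEAD3 below, are named after their values were seen, and whether the changes within the pairs differed was not tested.

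AJUBA encodes a LIM protein that binds and inhibits LATS kinases, on chromosome 14 from 22971174 to 22982642. Its FPKM was 38.3, 36.6 and 37.4 in control and 37.7, 35.0 and 31.8 in SP-treated libraries, with overlap between the groups. The log2 fold change was -0.10 (95% interval -0.27 to 0.07, limma adjusted p = 0.348), and the interval did not reach the change of any other target. AJUBA overlaps a longer protein-coding gene on the same strand (AL132780.3), so reads may be shared.

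**Figure D2:**
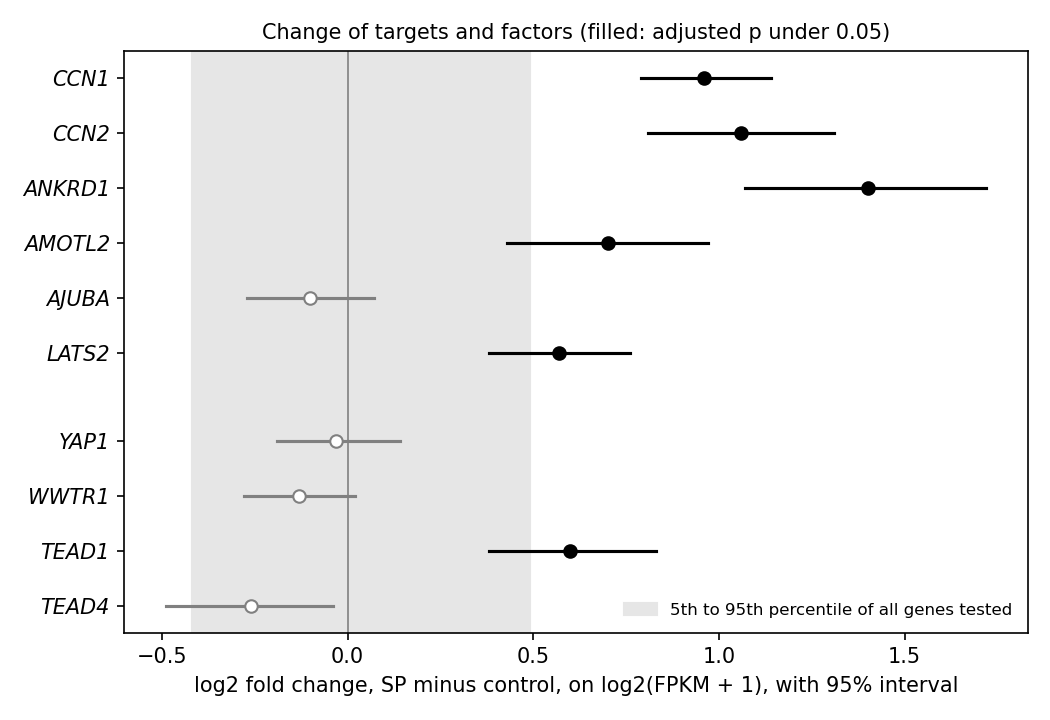
Log2 fold change (SP minus control, on log2(FPKM + 1)) with its 95% interval from limma for each target (top) and factor (bottom), filled where adjusted p was under 0.05. The grey band runs from -0.42 to 0.49, the 5th to the 95th percentile of all genes tested, and the points of CCN1, CCN2, ANKRD1, AMOTL2, LATS2 and TEAD1 lie to the right of it.

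Neither coactivator gene passed the test. YAP1, on chromosome 11 from 102110461 to 102233423, was at 16.8, 17.5 and 19.1 FPKM in control and 18.0, 16.9 and 17.4 in SP-treated libraries. The SP values fell inside the control range. The log2 fold change was -0.03 (95% interval -0.19 to 0.14, limma adjusted p = 0.812), and its sign turned with equal totals (0.032) and median-ratio scaling (0.021). WWTR1, which encodes TAZ and lies on chromosome 3 from 149517235 to 149736714, was at 57.1, 59.3 and 63.4 FPKM in control and 56.6, 55.3 and 52.2 in SP-treated libraries. Each SP library was below each control library, as for 26.1% of genes tested, but the first ones of both groups were close. The log2 fold change was -0.13 (95% interval -0.28 to 0.02, limma adjusted p = 0.193).

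FPKM is per transcript length, so the level of YAP1 can be set beside that of WWTR1. In every library YAP1 was the lower of the pair. The ratio of YAP1 to WWTR1 FPKM was 0.294, 0.295 and 0.301 in control and 0.318, 0.306 and 0.333 in SP-treated libraries, without overlap (mean log2 difference 0.10, p = 0.1 by a two-sided exact permutation test, the smallest p that 3 against 3 can give). YAP1 made up 22.7% to 23.1% of the summed YAP1 and WWTR1 FPKM in control and 23.4% to 25.0% in SP-treated libraries.

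The TEAD genes encode the DNA-binding partners of YAP and TAZ. TEAD1, on chromosome 11 from 12674591 to 12944483, was at 8.11, 8.73 and 10.6 FPKM in control and 14.7, 14.7 and 13.6 in SP-treated libraries. The groups did not overlap, and the third control library was the nearest to the SP libraries. TEAD1 rose by a log2 fold change of 0.60 (SE 0.10, limma adjusted p = 0.00575). TEAD4, on chromosome 12 from 2959330 to 3040673, was at 33.4, 31.0 and 27.3 FPKM in control and 27.9, 25.3 and 22.7 in SP-treated libraries. The highest SP library overlapped the lowest control library. Its log2 fold change was -0.26 (SE 0.10, limma adjusted p = 0.092). With the replicate number as a block the adjusted p was 0.0268, and without the third control library it was 0.0453, over a range of 0.0268 to 0.237 in all alternatives.

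The ratio of TEAD4 to TEAD1 FPKM was 4.12, 3.55 and 2.58 in control and 1.91, 1.72 and 1.67 in SP-treated libraries. TEAD4 was the higher of the pair in every library, by a smaller factor with SP (mean log2 difference -0.93, p = 0.1 by a two-sided exact permutation test, the smallest it can give). The other TEAD genes were expressed too. TEAD2 fell from 30.7, 29.6 and 28.6 to 23.5, 24.7 and 24.1 FPKM (log2 fold change -0.29, limma adjusted p = 0.0162), a value that became 0.0659 with equal totals, 0.0639 without the second control and 0.0592 without the second SP library (0.0164 to 0.0659 over the alternatives). TEAD3 had a log2 fold change of 0.13 (limma adjusted p = 0.269). The sum of the 4 TEAD genes was 84.9, 82.7 and 78.9 FPKM in control and 81.4, 78.6 and 73.5 in SP-treated libraries, with overlap. TEAD1 made up 9.55%, 10.6% and 13.4% of it in control and 18.0%, 18.7% and 18.5% in SP-treated libraries. These sums and shares were computed after the values were seen and were not tested.

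**Figure D3:**
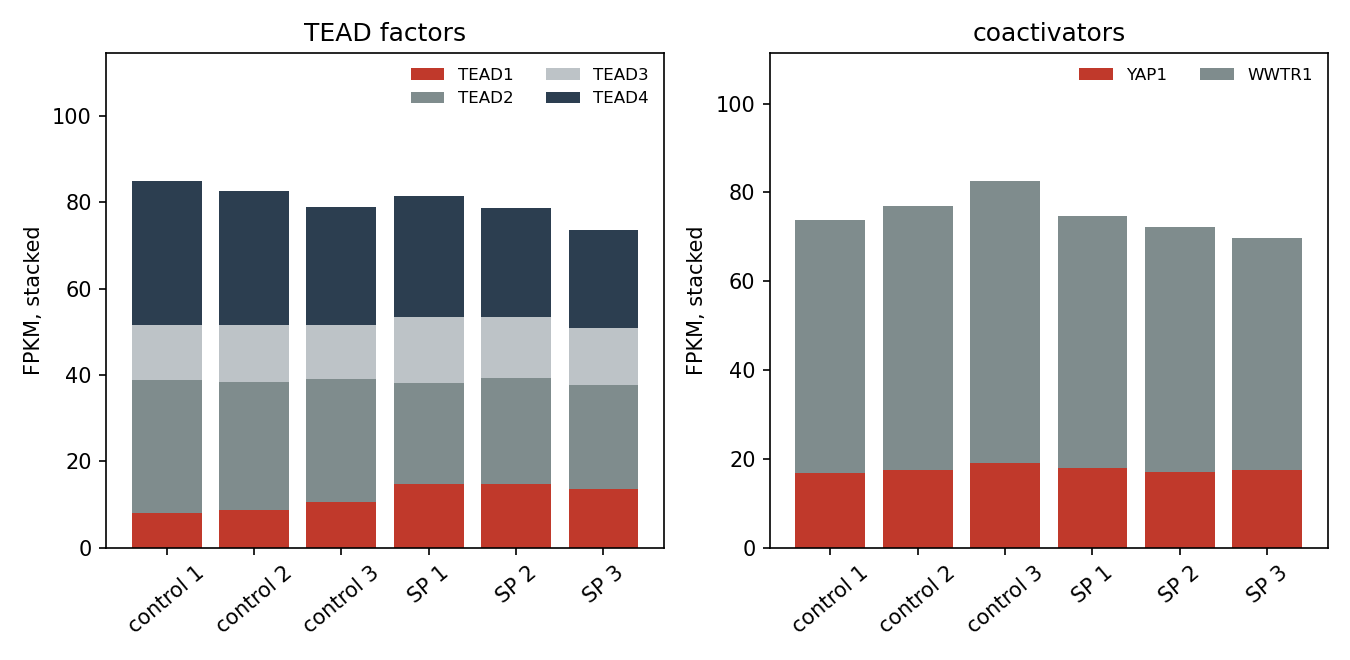
FPKM of TEAD1 to TEAD4 (left) and of YAP1 and WWTR1 (right), stacked from 0, for each of the 3 control and 3 SP libraries. The height of the TEAD bars overlaps between the groups (78.9 to 84.9 and 73.5 to 81.4 FPKM), while the TEAD1 part is larger in each SP library.

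The other genes of the pathway were counted in 4 lists, against the background of 8.57% of all genes tested higher and 12.0% lower. Of 24 genes of Hippo kinases, their adaptors and the STRIPAK complex, which opposes them, 1 rose, 3 fell and 20 did not pass, which is near or under those shares. The median log2 fold change was 0.07. SAV1, the scaffold of the upstream Hippo kinases, rose from 10.2, 10.4 and 11.8 to 24.7, 20.8 and 14.4 FPKM (log2 fold change 0.80, limma adjusted p = 0.0141). The third SP library was much lower than the others. The adjusted p of SAV1 was 0.051 without the second control and 0.0597 without the second SP library (0.0024 to 0.0597 over the alternatives).

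STK25, a kinase of the STRIPAK complex, fell from 54.4, 53.7 and 51.4 to 40.2, 41.4 and 42.3 FPKM (log2 fold change -0.36, limma adjusted p = 0.00588). NF2, which encodes the tumor suppressor merlin upstream of LATS, fell by 0.33 on the log2 scale (limma adjusted p = 0.0376). Its adjusted p was over 0.05 with no filter (0.0635), equal totals (0.0978), median-ratio scaling (0.0669) and without any 1 library other than the first SP library (0.0524 to 0.125), and it ran from 0.0234 to 0.125.

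Of 10 partners and inhibitors of YAP, TAZ and TEAD, 6 were tested, and 2 rose and 1 fell, against 8.57% and 12.0% of all genes tested. VGLL4, which competes with YAP for TEAD, rose from 9.98, 10.3 and 8.46 to 13.7, 13.8 and 11.8 FPKM (log2 fold change 0.41, limma adjusted p = 0.0214, and 0.0617 and 0.0949 without the first and the second SP library, 0.00967 to 0.0949 over the alternatives). LIMD1, a LIM protein related to AJUBA, rose by 0.39 on the log2 scale (limma adjusted p = 0.0327). Its adjusted p was over 0.05 with no filter (0.0583) and without the first control, second control, first SP or second SP library (0.0733, 0.0903, 0.0908 and 0.12), and it ran from 0.0235 to 0.12. TEAD2 was the gene that fell.

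Of 17 further genes that are widely used as YAP and TAZ targets, 5 rose, 3 fell and 9 did not pass, against 8.57% higher and 12.0% lower over all genes tested. The median log2 fold change was -0.01, against 0.83 for the 6 targets above. Both lists were drawn up with earlier results of these data known, so the medians can differ through the choice of genes. The difference was not tested. NT5E, which encodes the ectonucleotidase CD73, showed the largest change, from 12.7, 24.4 and 25.98 FPKM in control to 76.5, 116 and 112 in SP-treated libraries (log2 fold change 2.26, limma adjusted p = 0.00139). The kinase gene NUAK2 rose from 11.8, 10.02 and 7.78 to 16.6, 18.6 and 19.8 FPKM (log2 fold change 0.84, limma adjusted p = 0.0051). DOCK5, which encodes a guanine nucleotide exchange factor, rose by 0.57 on the log2 scale (limma adjusted p = 0.00461).

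AXL, a receptor tyrosine kinase, fell from 103, 104 and 104 to 79.2, 75.1 and 72.0 FPKM (log2 fold change -0.46, limma adjusted p = 0.00244). The other 4 genes of this list past the threshold were outside the naming rule and are named after their values were seen. CRIM1 and ASAP1 rose by 0.68 and 0.30 on the log2 scale. FJX1 and TGFB2 fell by 0.45 and 1.07 on the log2 scale, and TGFB2, a ligand of the TGF-β family, was at 37.3, 23.0 and 29.2 FPKM in control and 17.02, 12.9 and 10.9 in SP-treated libraries. The adjusted p of CRIM1 was over 0.05 with no filter (0.0655) and without the second control, the third control, the first SP or the second SP library (0.0919, 0.0659, 0.0768 and 0.0979). That of ASAP1 was over 0.05 with the replicate block (0.0512), no filter (0.0582) and equal totals (0.0517), and without the first or second library of either group (0.0816 to 0.133). That of FJX1 was 0.0506 without the second control and 0.0509 without the second SP library.

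Of the 4 other CCN genes, CCN3 was above the filter. It rose from 63.8, 72.0 and 49.9 to 98.4, 109 and 93.0 FPKM (log2 fold change 0.70, limma adjusted p = 0.00813), and it was more abundant than CCN2 in every library. CCN4, CCN5 and CCN6 were at most 0.51 FPKM and were not tested. CCN5 was at 0.51, 0.19 and 0.41 in control and at 0.0, 0.04 and 0.05 in SP-treated libraries, the opposite direction to CCN3.

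**Figure D4:**
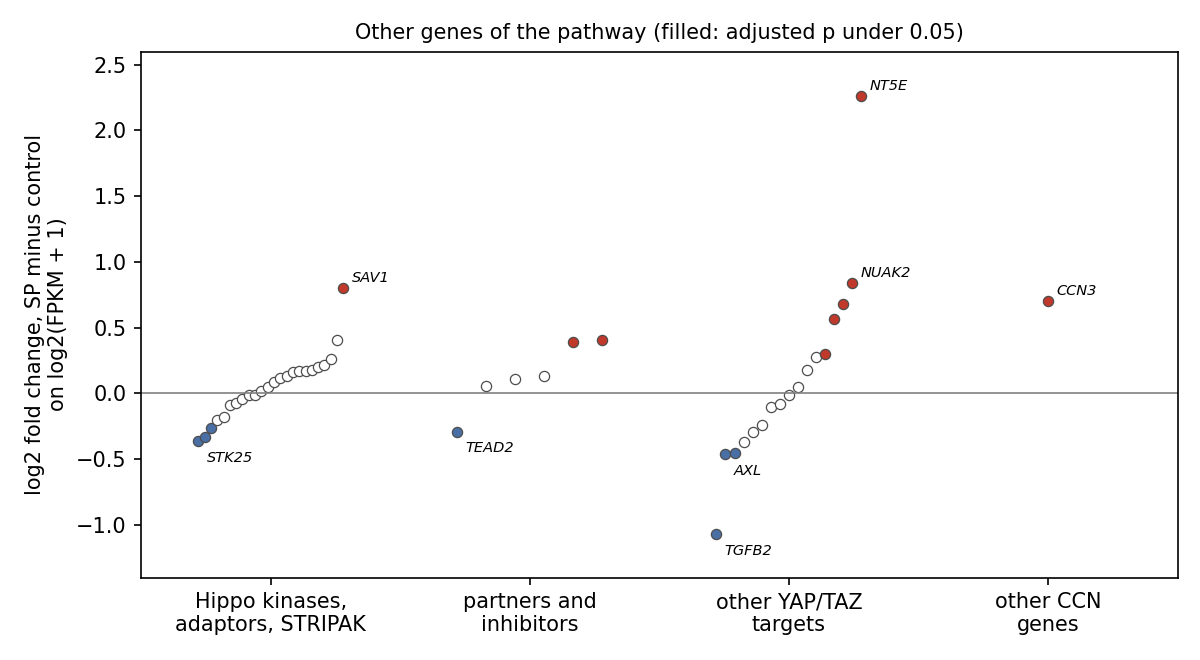
Log2 fold change (SP minus control, on log2(FPKM + 1)) of each tested gene in 4 lists of the pathway, sorted within a list, red where higher and blue where lower at an adjusted p under 0.05 and open where the gene did not pass. Of the further YAP and TAZ targets 5 are red and 3 are blue, from NT5E at 2.26 to TGFB2 at -1.07.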

How the data were processed

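The transcriptomes of 3 SP and 3 control libraries were measured on the DNBSEQ platform. The authors filtered the paired-end reads, aligned them with HISAT to GRCh38.p13, used RSEM for the gene levels and deposited FPKM rounded to 2 decimals. The submitters' processing notes also name HISAT2 and Bowtie2. Strand handling: not given in the sources used here. Each FPKM is relative to the library's total, so abundant genes that change shift all others.

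The count test of the study could not be applied to FPKM and was replaced by limma 3.58.1 (R 4.3.3) with a variance trend on log2(FPKM + 1), over 12127 genes that reached 0.5 FPKM in 3 or more libraries, with Benjamini-Hochberg adjustment over all of them. Fold changes on this scale understate those of low genes. The test was checked on simulated data. Depth is unknown: among 618 genes with low values the ratio of each library to the first control was most often 1, which rounding gives by itself. No source says that the libraries came from separate cultures, so p-values measure the spread between libraries, which may be technical.

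The labels number the libraries of both groups alike. Deviations from the group means correlated with 0.165, 0.223 and 0.17 between same-numbered libraries, so the model was also fitted with replicate number as a block. The members and lists were chosen with earlier results of these data known. Named genes are the members, TACR1, up to 4 genes per list with the smallest p past the threshold, and the 3 genes most like CCN1 and CCN2. A gene that this rule names is not reported here. Alternatives were another pseudocount (0.1), no filter, the block, no trend, 3 scalings (equal totals, median-ratio, quantile) and each library left out. Values after ± are SDs. Gene positions are from GENCODE 29, promoters from RefSeq.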

Additional observations from a re-analysis of the deposited data

How the results depend on the processing

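Of 130 comparisons of a member's log2 fold change with its value under an alternative, 125 kept their direction and their side of the threshold. The exceptions were YAP1, which turned to 0.032 with equal totals, 0.021 with median-ratio scaling and 0.021 without the third control library (-0.066 to 0.021 with 1 library left out), and TEAD4, which passed with the replicate block and without the third control library. With the replicate block 1 factor was therefore lower, and with 1 library left out 0 to 1 were. Among the other genes named, AMOTL1 turned to -0.027 without the first control library, within a range of -0.027 to 0.124 when 1 library was left out. Besides TEAD4, the block ended the call of ASAP1 (adjusted p = 0.0512 from limma) and changed no other call among the genes named. The count of targets higher was 5 and of targets lower 0 in every alternative. Over all genes, 1039 were higher and 506 to 1111 were with 1 library left out, and 1457 were lower and 432 to 1407 were with 1 library left out. Equal totals gave 750 lower genes and median-ratio scaling 923. At 2-fold, 37 genes were lower, and 87 with a pseudocount of 0.1. The causes were not tested, except that a smaller pseudocount widens the fold changes of low genes by construction and fewer libraries leave fewer degrees of freedom. The ratios of YAP1 to WWTR1 and TEAD4 to TEAD1 kept their direction in all their alternatives, where the exact tests could not pass 0.05.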

Other observations

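Over the 6 libraries the genes with a pattern most like CCN1 were PNPLA8, CYSTM1 and IL4I1 (Pearson's r of log2(FPKM + 1) of 0.998, 0.997 and 0.997), with log2 fold changes of 0.51, 1.03 and 2.12. Those most like CCN2 were GPR176, NFKB2 and LRRC8A (0.996, 0.994 and 0.994), with log2 fold changes of 1.45, 1.11 and 0.45. GPR176, which encodes an orphan G protein-coupled receptor, was at 14.9, 12.9 and 10.9 FPKM in control and 38.7, 39.0 and 32.4 in SP-treated libraries. NFKB2, which encodes a subunit of NF-κB, was at 26.5, 23.4 and 20.9 in control and 49.4, 55.8 and 50.2 in SP-treated libraries. With the other 9 members, r ran from -0.85 to 0.976 for CCN1 and from -0.792 to 0.992 for CCN2. The points are 2 treatment groups of 3 libraries each, and both genes of a pair share the scaling of each library. A high r therefore largely restates the difference between the groups.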
